A study of Mus musculus with 12 samples.

Results

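The respiratory chain of mouse motor cortex was examined gene by gene in single nuclei. Members were all genes of the deposited gene list with a symbol starting with mt-, or matching Ndufa, Ndufb, Ndufc, Ndufs, Ndufv, Sdha to Sdhd, Uqcr, Cox4i to Cox8 or Atp5, which gave 110 of 31053 genes. Of these, 13 are encoded in mitochondrial DNA and 97 in the nucleus; the nuclear group holds 82 subunits and 15 other genes, among them the assembly factors named Ndufaf and Sdhaf. Measured values did not choose the members.

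The series profiled nuclei of right primary motor cortex, taken at the caudal forelimb area, of 6 mice aged 13 weeks; its title concerns states of glutamatergic neurons that go with motor learning. Trained mice (2, 4 and 6) pressed a lever while head-fixed for part of their daily 1 mL of water on days 11 to 13, in sessions of 100 trials. Control mice (1, 3 and 5) drank the same 1 mL in the home cage and had no training. Both groups had been on the same water restriction for the 10 days before, so water restriction is shared by all mice.

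The respiratory chain moves electrons from NADH and succinate through complexes I, II, III and IV to oxygen and pumps protons, and complex V uses the proton gradient to make ATP. Complex II is built from nuclear genes alone, while complexes I, III, IV and V each join a few proteins made inside the mitochondrion to many nuclear-encoded ones, so that both genomes have to supply parts of the same machines. Neurons rely on oxidative phosphorylation to keep ion gradients, and fast-spiking parvalbumin interneurons are known for a dense supply of mitochondria. Mitochondrial transcripts are made and kept outside the nucleus, so in a nucleus preparation they are carried over from the cytoplasm. Nuclear-encoded transcripts are made in the nucleus, but their counts can also include copies carried over from the cytoplasm.

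A few coding sequences are shown because the clearest cell class patterns below concern alternative isoform genes and their partners. The first pair is Ndufa4l2, a paralog of Ndufa4 that hypoxia-inducible factor is known to induce, and Ndufa4, a subunit now placed in complex IV. The second pair is Cox6a2, the heart and muscle isoform of cytochrome c oxidase subunit 6A, and Cox6a1, its broadly expressed partner. They are read from GENCODE transcripts of build mm10, 5' to 3', and capitals mark bases that differ from the aligned partner or have no partner base. Ndufa4l2 lies at chr10:127514967-127517154 on the plus strand and Ndufa4 at chr6:11900292-11907497 on the minus strand. Of 242 aligned positions, 178 (73.6%) were identical.
Ndufa4l2: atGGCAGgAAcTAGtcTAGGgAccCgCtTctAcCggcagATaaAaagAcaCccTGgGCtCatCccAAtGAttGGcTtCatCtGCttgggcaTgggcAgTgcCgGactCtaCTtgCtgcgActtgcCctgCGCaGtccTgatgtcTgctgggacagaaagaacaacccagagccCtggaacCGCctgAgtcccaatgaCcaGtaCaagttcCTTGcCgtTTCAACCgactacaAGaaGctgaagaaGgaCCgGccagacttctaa
Ndufa4: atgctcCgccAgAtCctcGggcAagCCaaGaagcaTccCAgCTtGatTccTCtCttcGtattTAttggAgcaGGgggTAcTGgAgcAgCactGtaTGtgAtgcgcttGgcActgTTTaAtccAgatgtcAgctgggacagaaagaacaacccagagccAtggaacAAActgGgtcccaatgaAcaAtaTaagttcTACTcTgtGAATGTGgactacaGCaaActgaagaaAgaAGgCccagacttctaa
Cox6a2 lies at chr7:128205435-128206387 on the minus strand, where Itgad is annotated on the other strand, and Cox6a1 at chr5:115345642-115348981 on the minus strand, shown by the last 300 of its 339 coding bases. Of 293 aligned positions, 202 (68.9%) were identical.
Cox6a2: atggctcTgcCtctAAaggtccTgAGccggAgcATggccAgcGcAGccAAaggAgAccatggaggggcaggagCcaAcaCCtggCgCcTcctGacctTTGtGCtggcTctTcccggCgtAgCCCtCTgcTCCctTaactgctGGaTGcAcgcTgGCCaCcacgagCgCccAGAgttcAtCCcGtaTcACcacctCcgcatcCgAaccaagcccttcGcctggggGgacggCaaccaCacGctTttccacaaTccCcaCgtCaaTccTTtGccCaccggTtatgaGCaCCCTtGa
Cox6a1: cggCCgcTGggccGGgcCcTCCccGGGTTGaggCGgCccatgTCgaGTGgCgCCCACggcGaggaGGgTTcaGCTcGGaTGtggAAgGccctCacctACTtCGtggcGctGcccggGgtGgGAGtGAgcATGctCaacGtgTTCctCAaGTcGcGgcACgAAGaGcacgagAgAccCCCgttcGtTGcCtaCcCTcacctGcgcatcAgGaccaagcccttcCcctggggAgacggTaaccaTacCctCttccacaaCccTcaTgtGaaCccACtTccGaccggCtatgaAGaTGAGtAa

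In the mitochondrial genome, mt-Atp8 (chrM:7766-7969) and mt-Atp6 (chrM:7927-8607), the 2 mitochondrially encoded subunits of complex V, share 43 bases, so reads from these bases cannot be assigned to 1 of them. The window at chrM:7907-7989, plus strand, build mm10, has the shared bases in capitals and 20 bases on each side.
mt-Atp8 and mt-Atp6: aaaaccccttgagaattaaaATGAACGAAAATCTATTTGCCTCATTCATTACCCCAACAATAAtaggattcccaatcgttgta

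RefSeq promoter windows of GRCm38.p6, from 250 bases before to 50 after a gene's start, were found for 78 of 96 nuclear member symbols (83 windows; 1 symbol has 2 gene identifiers). Motifs of 3 factors known for respiratory chain promoters were searched on both strands: GCATGCGC for NRF1, CCGGAAG for GABP and AAGATGG for YY1, of which the last 2 can share 3 bases. CCGGAAG stood in 21 windows (25.3%), against 8.86% of all 32851 windows. GCATGCGC stood in 12 (14.5%), against 2.71% of all windows, and AAGATGG in 11 (13.3%), against 6.34%. At least 1 of the 3 stood in 37 member windows (44.6%) and in 16.6% of all windows. A match describes letters, not a bound site. The windows of Cox8a, the broadly expressed isoform of subunit 8, and Cox8b, its muscle isoform, are shown because Cox8a was counted in every class and Cox8b gave 24 unique molecular identifiers (UMIs) in all nuclei together. Capitals mark the GABP motif on the other strand, which stands 2 times in Cox8a (chr19:7217567-7217866, minus strand) and not in Cox8b (chr7:140900397-140900696, minus strand).
Cox8a: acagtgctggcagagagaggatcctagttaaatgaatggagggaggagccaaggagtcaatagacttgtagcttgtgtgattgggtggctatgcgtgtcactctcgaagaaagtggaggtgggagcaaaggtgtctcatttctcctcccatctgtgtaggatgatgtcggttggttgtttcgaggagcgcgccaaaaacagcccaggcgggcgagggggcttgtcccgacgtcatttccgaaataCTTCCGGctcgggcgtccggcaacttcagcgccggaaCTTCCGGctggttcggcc
Cox8b: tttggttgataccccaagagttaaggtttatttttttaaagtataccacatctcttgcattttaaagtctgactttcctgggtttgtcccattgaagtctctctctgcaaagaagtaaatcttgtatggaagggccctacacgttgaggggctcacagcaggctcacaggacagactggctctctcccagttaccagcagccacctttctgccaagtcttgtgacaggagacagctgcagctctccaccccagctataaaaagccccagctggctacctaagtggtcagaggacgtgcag

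The matrix held 402280889 UMIs in 51926 barcodes, and 49292 nuclei were kept, between 5263 and 8374 per trained mouse and between 7353 and 11817 per control mouse. Median UMIs per kept nucleus ranged from 5752 to 7205 in trained mice and from 5215 to 6863 in control mice. Nuclei were clustered with all members left out of the variable genes and named by marker genes; each name stands for "-like", and IT, ET, NP and CT stand for intratelencephalic, extratelencephalic, near-projecting and corticothalamic neurons. Named clusters had between 1 and 7 markers of their class among their 10 leading genes, and the endothelial cluster was also led by the haemoglobin genes Hbb-bs, Hba-a1 and Hba-a2. A set of 18 classes had at least 20 nuclei in every mouse, 11 neuronal and 7 non-neuronal, and the sum over all nuclei was added as a 19th. Across mice, 311 barcode sequences occurred in more than 1 mouse. A lower or higher share of transcripts in a class may reflect the member genes or all other genes of that class, and these cannot be told apart.

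Both kinds of library that stood apart touch the members. Trained mouse 2 had the highest mitochondrially encoded share in 18 of 18 classes. Trained over control ratios of the mitochondrial sum, and the count of single mitochondrially encoded tests, are given with and without it. Fold changes of single genes for training are given with it only. Cluster 18 (409 nuclei, led by Tmsb10, Timm8b, Uqcc2, Mt3 and Fth1, with a median of 1382 UMIs) came almost whole from trained mouse 6 (394 nuclei), and its nuclear members made up 18271 counts in each 1000000 UMIs there (CPM). It took no name, entered no class, and entered only the sum over all nuclei.

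The mitochondrially encoded genes took very unequal shares of all UMIs in the cell classes. Their summed level was highest in endothelial nuclei, at 4867, 3880 and 4729 CPM in trained mice 2, 4 and 6, against 2521, 2180 and 4431 CPM in control mice 1, 3 and 5. It was lowest in L5 ET neurons, at 280.0, 111 and 119 CPM in trained and 96.6, 61.8 and 101 CPM in control mice. The lowest endothelial mouse lay far above the highest L5 ET mouse. Averaged over the 6 mice, the highest class exceeded the lowest 29.4-fold. Oligodendrocytes lay between, at 2490, 1440 and 1492 CPM in trained and 1178, 884 and 1232 CPM in control mice. All 7 non-neuronal classes (means of 816 to 3768 CPM) lay above all 11 neuronal classes (means of 128 to 326 CPM).

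The nuclear members also differed between classes, but over a narrower range. Their summed level averaged 10983 CPM in endothelial nuclei and 10524 CPM in pericytes and smooth muscle, and 2555 CPM in L5 IT neurons, a 4.30-fold span. The non-neuronal classes covered 5753 to 10983 CPM and the neuronal ones 2555 to 5484 CPM. Among neurons the highest classes were L5/6 NP, at 3551, 6979 and 5727 CPM in trained and 4399, 6398 and 5849 CPM in control mice, and Pvalb interneurons, at 4110, 6217 and 5355 CPM in trained and 4529, 6110 and 5610 CPM in control mice. These 2 classes overlapped each other mouse by mouse. Within each mouse, the order of the 18 classes by the mitochondrial sum followed their order by the nuclear sum (Spearman's rho of 0.92 to 0.97, a description over classes that share a library). Both orders also followed the cytosolic ribosomal protein share (0.92 to 0.97) and ran opposite to the median UMIs per nucleus (-0.96 to -0.90); the part of depth in the class differences was not tested.

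**Figure D1:**
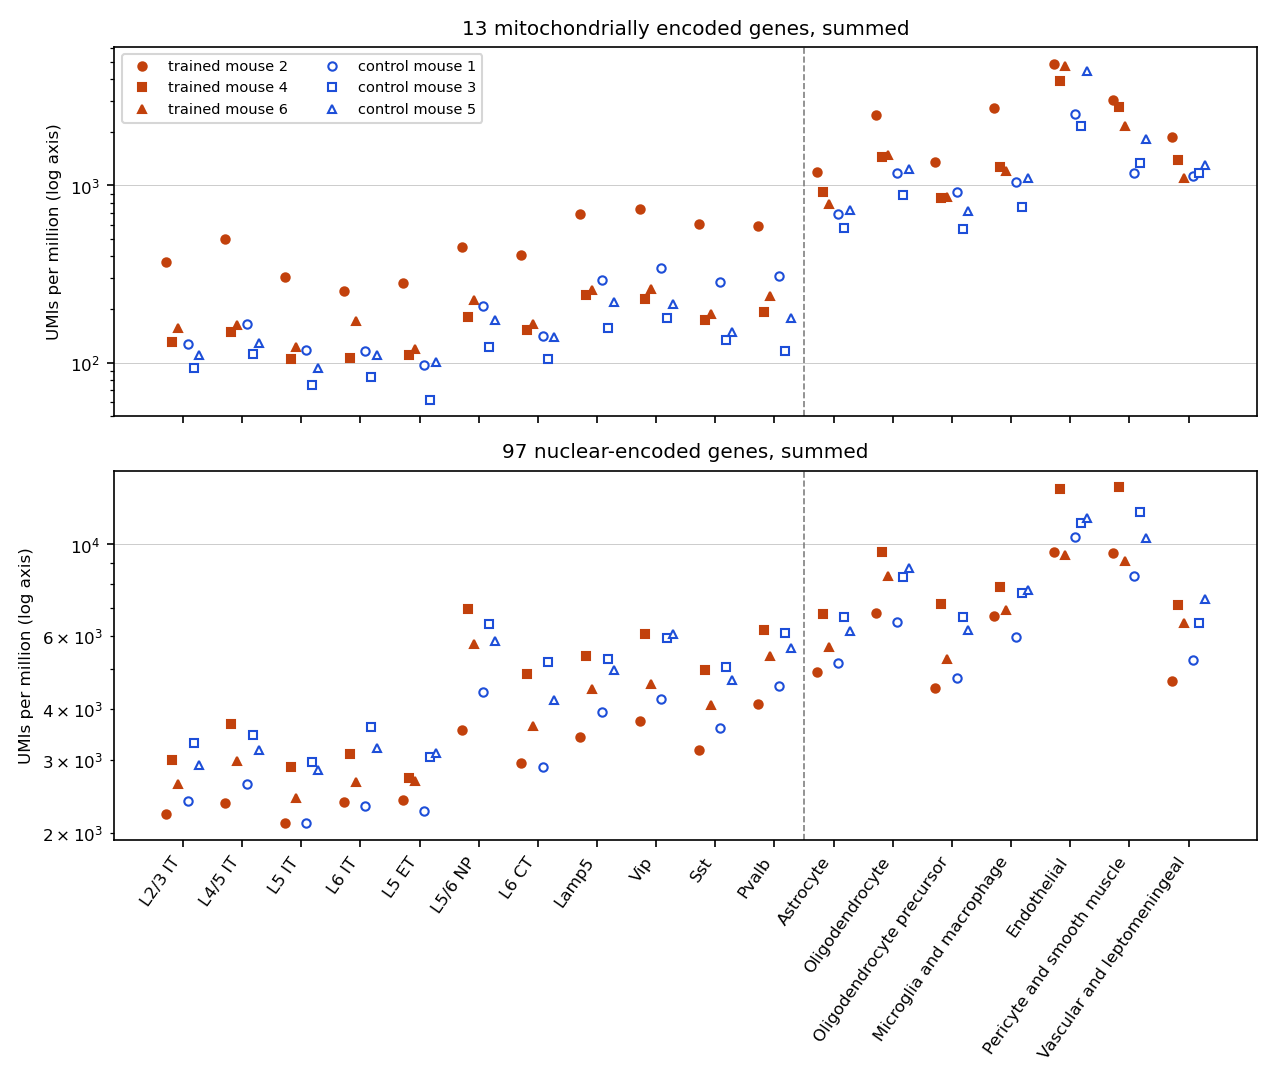
Summed level of the 13 mitochondrially encoded (upper panel) and the 97 nuclear-encoded members (lower panel) in each class, in CPM on log axes, 1 point per mouse; the dashed line parts neuronal from non-neuronal classes. Mitochondrial sums run from 61.8 in an L5 ET sum to 4867 in an endothelial sum, and trained mouse 2 is the highest point of every class in the upper panel.

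Counts per nucleus gave another view than shares. Mitochondrially encoded UMIs per nucleus were again highest in endothelial nuclei, with 13.1, 7.54 and 27.1 in trained and 6.73, 5.05 and 13.0 in control mice. In L2/3 IT neurons there were 4.18, 1.14 and 1.90 in trained and 1.57, 0.804 and 1.11 in control mice. Nuclear-member UMIs per nucleus were more numerous in these neurons than in oligodendrocytes, in every mouse. L2/3 IT neurons had 25.3, 25.9 and 32.0 in trained and 29.3, 28.4 and 29.3 in control mice, and oligodendrocytes had 14.3, 15.9 and 16.5 in trained and 12.8, 14.0 and 16.3 in control mice. After each nucleus was thinned to 2000 UMIs, 41.2%, 23.7% and 25.3% of L2/3 IT nuclei of trained mice and 20.5%, 17.2% and 20.6% of control mice held at least 1 mitochondrially encoded UMI. The same share was 93.7%, 89.8% and 85.9% of oligodendrocytes in trained and 79.3%, 77.3% and 78.7% in control mice. Before thinning the shares were 87.0%, 60.5% and 78.3% in trained and 65.1%, 50.2% and 58.7% in control L2/3 IT nuclei. Thinning left out 2 L2/3 IT nuclei, both of trained mouse 4. It left out 443, 588 and 348 oligodendrocytes of trained and 720, 1102 and 653 of control mice, which were shallower. The 5982 oligodendrocytes had a median of 1721 UMIs, so most were left out and their thinned shares describe the deepest ones only.

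**Figure D2:**
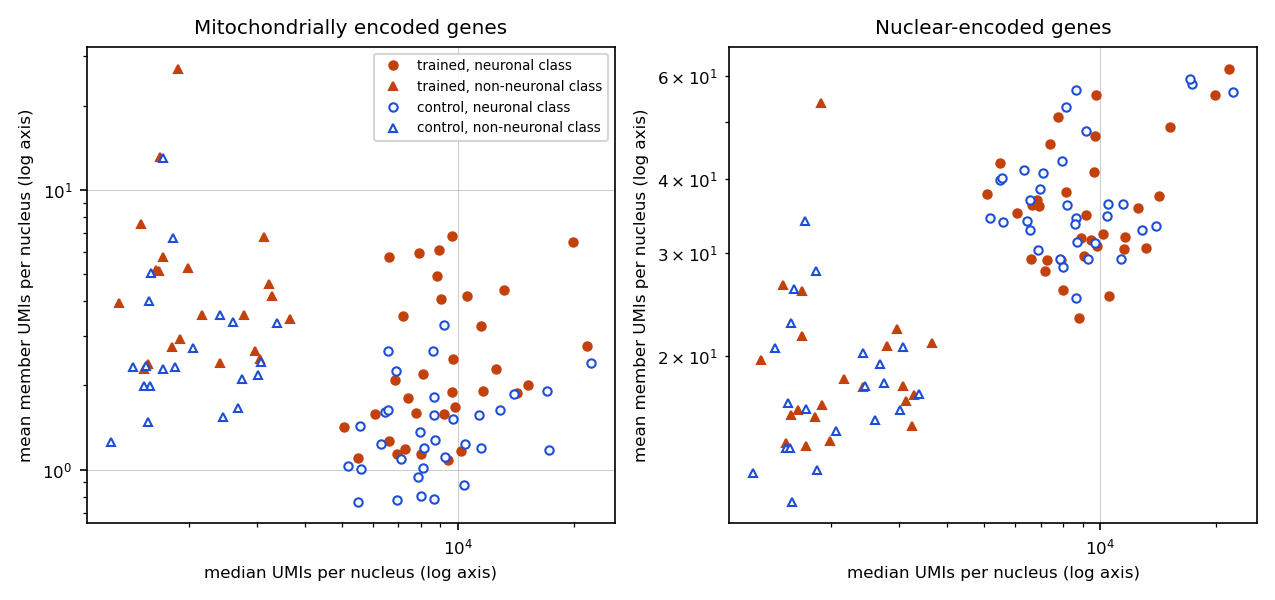
Mean member UMIs per nucleus (vertical, log axis) against median UMIs per nucleus (horizontal, log axis), for mitochondrially encoded genes on the left panel and nuclear-encoded genes on the right, 1 point per class and mouse, trained filled and control open. Non-neuronal classes (triangles) have fewer UMIs per nucleus, and the highest point of the left panel, 27.1, is the endothelial sum of trained mouse 6.

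In the class contrasts, each class was set against the mean of the other 17 in 1 edgeR quasi-likelihood fit with mouse as a block, over 15979 genes. Mitochondrially encoded members were higher at an adjusted p under 0.05 in 83 of 234 tests (35.5%) and lower in 112 (47.9%), and nuclear members were higher in 553 of 1656 tests (33.4%) and lower in 547 (33.0%). The background over all genes was 31.1% higher and 24.7% lower, so the share of higher nuclear members lay near it. The direction sorted by cell type: in the 7 non-neuronal classes 10 to 13 of the 13 mitochondrially encoded genes were higher and none lower, and in the 11 neuronal classes 4 to 12 were lower and none higher. Against the pooled counts of all other nuclei, in which neurons weigh most, 2 of them were higher and none lower in Vip interneurons, and 1 was higher and 3 lower in Pvalb interneurons, beside 23% of all genes higher and 27.4% lower in Vip and 31.6% and 34.6% in Pvalb.

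The nuclear members followed the same line between neurons and other cells, less sharply. In astrocytes 79 of 92 tested were higher and 1 was lower, where 37% of all genes were higher and 29% lower. Oligodendrocytes had 76 higher and 9 lower (background 35.1% and 30.9%), pericytes and smooth muscle 64 and 5 (19.7% and 21.8%), and endothelial nuclei 53 and 9 (17.3% and 21.8%). Microglia and macrophages had 50 higher and 11 lower (32.6% and 30.2%), oligodendrocyte precursors 38 and 8 (28% and 21.7%), and vascular and leptomeningeal nuclei 21 and 10 (24.6% and 23.5%), a share of higher members below that of all genes. At the other end, L5 IT neurons had 4 higher and 76 lower (38.3% and 28.1%), L4/5 IT 3 and 76 (34.9% and 26.4%), L2/3 IT 8 and 71 (39% and 28.2%), L6 IT 9 and 71 (35.3% and 26.1%) and L5 ET 13 and 66 (38.3% and 28.3%). L6 CT neurons had 6 higher and 46 lower (35.1% and 24.6%), while L5/6 NP neurons had 36 higher and 7 lower (27.4% and 19.7%). Inhibitory classes differed among themselves: Pvalb interneurons had 49 higher and 12 lower (34.5% and 26.4%), Vip 25 and 2 (26.4% and 17%), Lamp5 8 and 25 (25.7% and 17.7%) and Sst 11 and 42 (30.8% and 23.1%).

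Directions in Sst, Lamp5 and L6 CT neurons depended on what they were set against. Against the pooled counts of all other nuclei, 42 nuclear members were higher and 5 lower in Sst (background 28% and 29.8%), 22 and 2 in Lamp5 (19% and 28%), and 50 and 7 in L6 CT (30% and 30.6%). Over all 18 classes that contrast gave 812 higher and 407 lower nuclear-member calls, where 26.1% of all tests were higher and 32.2% lower. Without TMM scaling, the median log2 difference of all genes was -0.27 in L2/3 IT and 0.16 in endothelial nuclei, where TMM scaling gave 0.05 and -0.33.

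**Figure D3:**
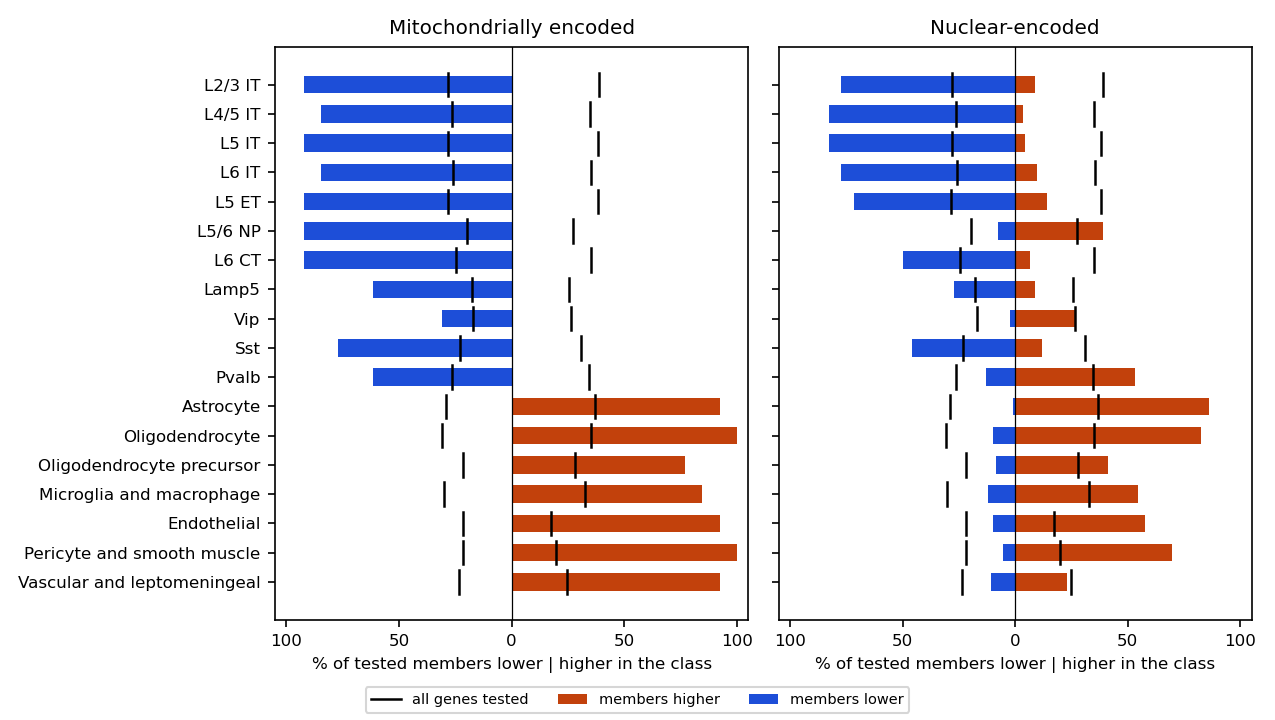
Percentage of tested members higher (right) and lower (left) in each class than in the mean of the other classes at an adjusted p under 0.05, with black ticks for the same percentage of all genes tested. Mitochondrially encoded members are lower in the 11 neuronal and higher in the 7 non-neuronal classes, and nuclear-encoded members split in the same way except in L5/6 NP, Vip and Pvalb neurons, where more are higher than lower.

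By complex, astrocytes had 31 of 35 tested complex I subunits higher and none lower, all 4 of complex II, all 8 of complex III, all 14 of complex IV and all 16 of complex V. Of all genes there, 37% were higher and 29% lower. The complex IV genes include sparse isoform genes such as Cox6b2, at 4.57 CPM in astrocytes. L5 ET neurons had 28 of 35 complex I subunits lower and 3 higher, with a median log2 difference of -0.82, where 28.3% of all genes were lower and 38.3% higher. The 12 Ndufaf and Sdhaf assembly factors did not follow the subunits there: 7 were higher and 4 lower, with a median of 0.41. In L2/3 IT neurons 6 of these 12 were higher and 4 lower, beside 29 of 35 complex I subunits lower. Of all genes in L2/3 IT, 39% were higher and 28.2% lower, so the assembly factors lay near these shares. Other glutamatergic classes differed. In L5 IT neurons 2 of the 12 were higher and 7 lower (median -0.19, background 38.3% and 28.1%). The counts were 1 and 6 in L4/5 IT (median -0.23, background 34.9% and 26.4%) and 5 and 3 in L6 IT (median 0.04, background 35.3% and 26.1%). Member genes are short, with a median span of 7674 bases against 26916 bases for genes at 1 CPM or more, and the longer members stood higher in L5 ET neurons (Spearman's rho of 0.614 between span and log2 difference over 92 genes) and lower in endothelial nuclei (-0.628). These are descriptions over genes, which are not independent, and the part of gene length was not tested.

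Complex I is the entry point for electrons from NADH. In oligodendrocytes the accessory subunit Ndufb11 averaged 166 ± 27.3 CPM (SD over 6 mice, as below), its highest class, with a log2 difference of 1.83 (SE 0.067, adjusted p = 1.4e-49). Ndufs7, the core subunit that holds the last iron-sulphur cluster before ubiquinone, averaged 147 ± 25.2 CPM there (log2 1.47, adjusted p = 1.4e-40), and the accessory Ndufb9 averaged 120.4 ± 16.7 CPM (log2 1.35). Ndufs4, an accessory subunit whose loss gives a Leigh-like disease in mice, went the other way: oligodendrocytes were its lowest class, at 70.3 ± 9.35 CPM (log2 -0.66, adjusted p = 1.5e-17). The assembly factor Ndufaf6 was also lowest in oligodendrocytes, at 7.52 ± 2.01 CPM (log2 -1.36).

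Ndufa7, another accessory subunit, was high in endothelial nuclei, at 414, 559 and 221 CPM in trained and 398, 427 and 377 CPM in control mice. The next class, pericytes, averaged 177 CPM, below every endothelial mouse. Its log2 difference was 2.37 (SE 0.11, adjusted p = 6.2e-38). In the same nuclei Ndufs1, the large iron-sulphur subunit, averaged 66.6 ± 32.1 CPM (log2 -0.89), and the assembly factor Ndufaf4 averaged 31.3 ± 16.9 CPM, its lowest class (log2 -1.59, adjusted p = 3.9e-09).

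Some assembly factors of complex I were higher in neuronal classes. Ndufaf5, which modifies Ndufs7 during assembly, was highest in Pvalb interneurons, at 53.3, 53.0 and 43.3 CPM in trained and 54.0, 51.3 and 53.7 CPM in control mice (log2 1.40, SE 0.066, adjusted p = 3.6e-39). Sst interneurons, at 35.1 ± 5.59 CPM, and L5 ET neurons, at 33.2 ± 4.31 CPM (log2 1.01), came next. Their SD ranges overlapped, and they were not compared within mice. Ndufaf4 passed as higher in 8 classes, with means of 64.2 CPM in L5 IT and 108 CPM in L5/6 NP neurons among them, and its highest class was Pvalb, at 126 CPM. Its direction in L5 IT, a log2 difference of 0.24, turned to -0.10 without TMM scaling and to about 0 against the pooled rest. Ndufaf2, a late assembly factor, was higher in L5 ET neurons, at 63.2 ± 4.22 CPM (log2 0.76). In the same L5 ET neurons Ndufb9 averaged 14.0 ± 3.33 CPM, its lowest class (log2 -1.56, adjusted p = 2.1e-34).

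Complex II is the succinate dehydrogenase of the tricarboxylic acid cycle. All 4 subunits passed as higher in Pvalb interneurons, in astrocytes and in oligodendrocytes, and all 4 as lower in the L2/3, L4/5, L5 and L6 IT classes. Of all genes, 34.5% were higher in Pvalb, 37% in astrocytes and 35.1% in oligodendrocytes, and 26.1% to 28.2% were lower in these IT classes. In Pvalb interneurons the membrane anchor Sdhc stood at 41.1, 42.7 and 41.6 CPM in trained and 37.6, 42.6 and 41.0 CPM in control mice, with a log2 difference of 0.40. Its assembly factor Sdhaf1 was highest in microglia and macrophages, at 28.4 ± 7.93 CPM (log2 1.48, adjusted p = 4.9e-15).

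In complex III, which passes electrons from ubiquinol to cytochrome c, Uqcrb averaged 228 ± 43.6 CPM in endothelial nuclei (log2 1.80, adjusted p = 4.9e-21) and 18.2 ± 5.53 CPM in L5 IT neurons (log2 -1.21). Uqcrc1, a core subunit, was lower in oligodendrocyte precursors, at 41.7 ± 10.4 CPM (log2 -0.45). Uqcr10 was lower in Lamp5 interneurons, at 46.2 ± 13.4 CPM (log2 -0.53).

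In complex IV, cytochrome c oxidase, the sharpest class patterns lay in its alternative isoform genes. Ndufa4l2, the paralog of the complex IV subunit Ndufa4, is given with them but was not counted as a subunit. Cox4i2, an isoform of subunit 4 at chr2:152754173-152765037, stood at 285, 394 and 174 CPM in pericytes and smooth muscle of trained mice and 264, 291 and 229 CPM in control mice. In all other classes it averaged 26.5 CPM or less; that highest other value, in endothelial nuclei, rests on 20 UMIs. The log2 difference in pericytes was 9.08 (SE 0.19, adjusted p = 4.3e-71), and this gene rests on 338 UMIs there. Its reference lay near the floor: the median class held 0.247 CPM and oligodendrocyte precursors 0. The size of the log2 difference is therefore imprecise. Ndufa4l2 followed Cox4i2, at 535, 607 and 365 CPM in trained and 402, 459 and 394 CPM in control pericytes (log2 10.15, SE 0.16, adjusted p = 5.4e-80). It gave 672 UMIs in all nuclei together, so its reference also rests on few counts. In endothelial nuclei Ndufa4l2 had 71.4, 14.7 and 6.71 CPM in trained and 31.2, 50.2 and 35.03 CPM in control mice, from 30 UMIs. Its partner Ndufa4 was also counted in pericytes, with 160.5, 427 and 309 CPM in trained and 148, 332 and 218 CPM in control mice, and was highest in endothelial nuclei, at 488 ± 155 CPM. Trained and control pericytes overlapped for all of these genes.

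Cox6a2 marked Pvalb interneurons, with 21.4, 52.0 and 41.2 CPM in trained and 27.5, 42.0 and 44.6 CPM in control mice (708 UMIs, log2 3.93, SE 0.13, adjusted p = 6.4e-55). Lamp5 interneurons came next, with 4.86, 10.3 and 7.65 CPM in trained and 16.0, 29.4 and 22.8 CPM in control mice, from 104 UMIs (log2 2.45, adjusted p = 4.0e-18). All 3 trained Lamp5 sums lay below all 3 control sums, which held for 5.43% of all genes in that class. That difference had a log2 fold change of -1.51 at an unadjusted p of 0.00036 (edgeR quasi-likelihood), and its adjusted p of 0.44 did not pass. Cox6a1, the partner, had a log2 difference of -0.01 in Pvalb, which did not pass, and was lower in Lamp5 interneurons (-0.43).

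Further isoforms were sparser. Cox6b2, known from testis, was highest in pericytes, at 62.4, 32.8 and 22.4 CPM in trained and 5.29, 13.7 and 15.3 CPM in control mice, from 31 UMIs in all. The trained sums lay above the control sums, as did those of 4.91% of the genes fitted in that class. Cox6b2 was too sparse there for the training fit, and its few UMIs give no basis for a training difference. It averaged 18.6 ± 6.31 CPM in vascular and leptomeningeal nuclei (45 UMIs, log2 5.11) and 4.57 ± 0.445 CPM in astrocytes (82 UMIs, log2 3.36). Cox7b2 averaged 9.28 ± 3.12 CPM in Lamp5 interneurons (log2 1.66), 8.61 ± 0.866 CPM in L5/6 NP neurons (log2 1.52) and 8.60 ± 2.97 CPM in astrocytes (log2 1.64). These SD ranges overlapped, and the classes were not compared within mice. Cox7b, the partner of Cox7b2, was higher in Pvalb interneurons, at 161, 183 and 182 CPM in trained and 163, 175 and 170.1 CPM in control mice (log2 0.92, SE 0.046, adjusted p = 4.8e-37). Cox7a1, a heart and muscle isoform, gave 201 UMIs in all nuclei, 37 of them in astrocytes, and Cox8b gave 24, 14 of them in Pvalb. Of Cox8a, pericytes at 681 ± 115 CPM (log2 1.26) and endothelial nuclei at 665 ± 135 CPM held the most. Their SD ranges overlapped, and they were not compared within mice. L5 ET neurons held the least Cox8a, at 75.4 ± 17.5 CPM (log2 -1.38, adjusted p = 2.3e-39).

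**Figure D4:**
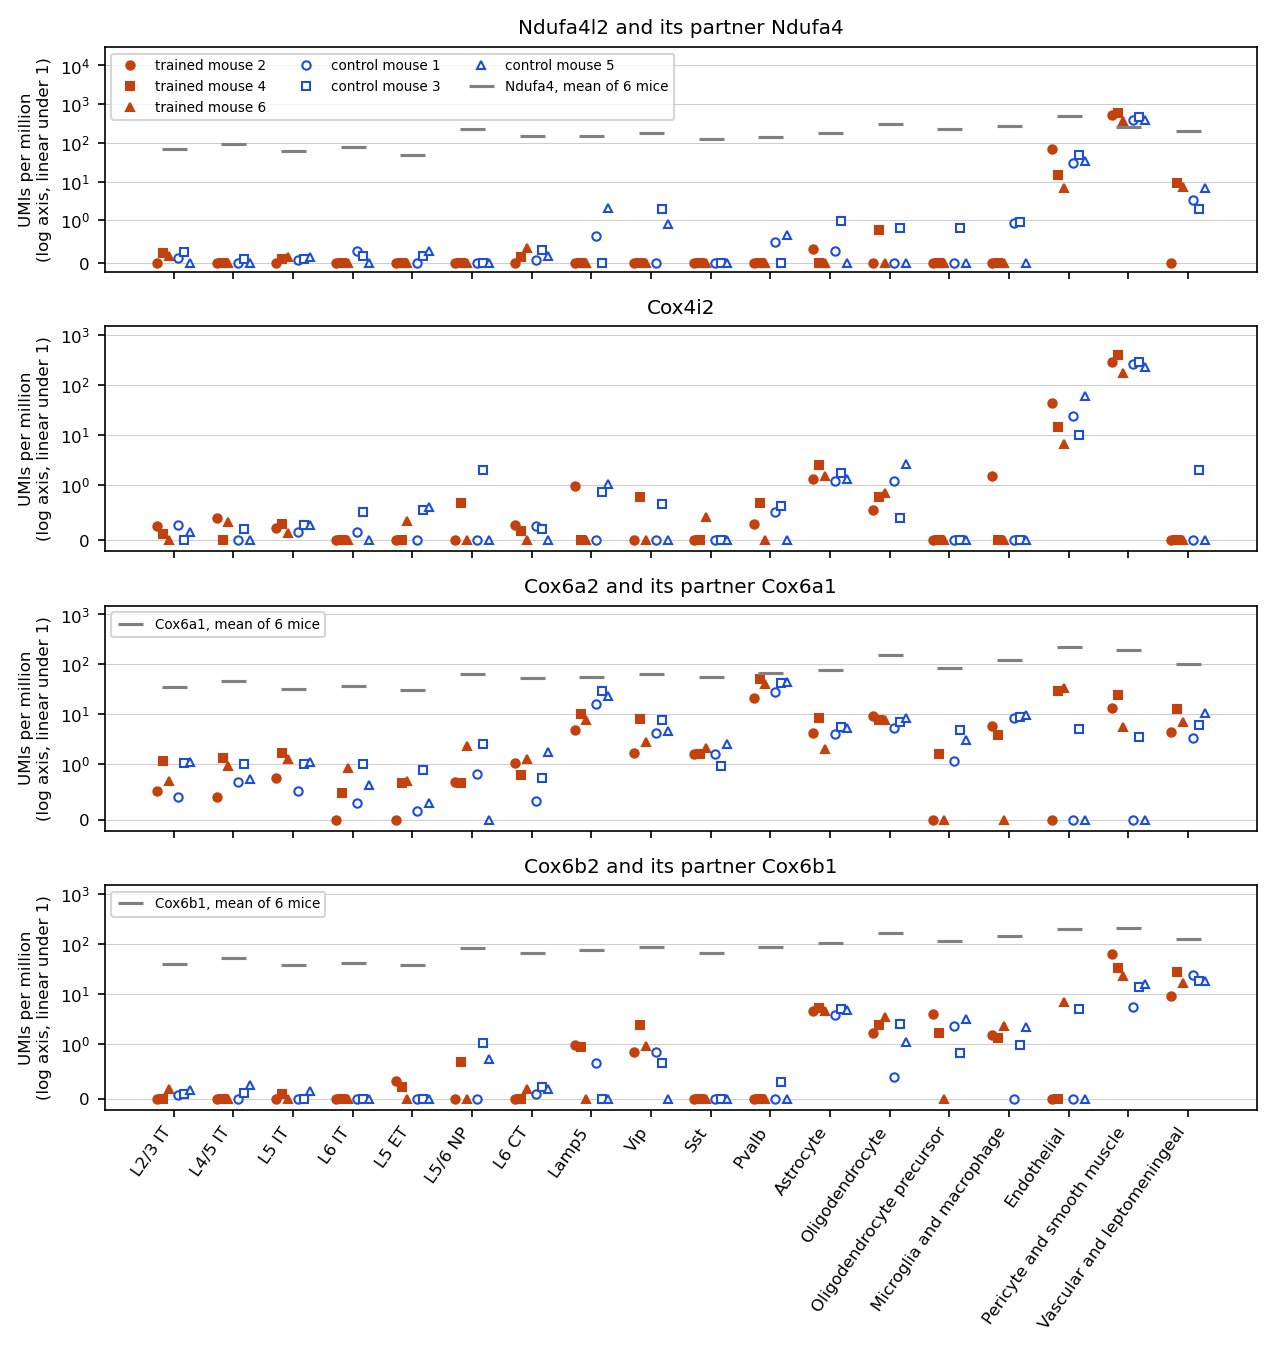
Isoform genes Ndufa4l2, Cox4i2, Cox6a2 and Cox6b2 in CPM (log axis, linear under 1) by class, 1 point per mouse, with grey bars for the mean of the partner gene over 6 mice. Ndufa4l2 and Cox4i2 stand out in pericytes and smooth muscle, and Cox6a2 in Pvalb and Lamp5 interneurons.

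Cox4i1, the main form of subunit 4, Ndufa13 and the testis isoform Cox8c were at 0 UMIs in all nuclei. Cox4i1 (chr8:120668222-120674207) lies under Gm20388, a gene annotated on the same strand, which was counted at 667, 720 and 688 CPM in trained and 703, 687 and 669 CPM in control mice. Ndufa13 (chr8:69894180-69902558) likewise overlaps Yjefn3, at 12.2, 16.2 and 13.6 CPM in trained and 10.7, 17.3 and 14.2 CPM in control mice. The zeros of these 2 genes therefore say nothing about their expression, and 13 nuclear members in all overlap a gene on the same strand.

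In complex V, the ATP synthase, Atp5o had the smallest p of the higher nuclear members in astrocytes. Atp5o, the subunit that links the catalytic head to the stalk, has 2 gene identifiers in the matrix that overlap each other; ENSMUSG00000116933 stood at 148, 130.1 and 187 CPM in trained and 220.0, 143 and 141 CPM in control astrocytes (log2 1.53, SE 0.053, adjusted p = 2.1e-51). It spans 242585 bases (chr16:91684398-91926982) and overlaps Donson and Cryzl1 on its strand, so its counts are uncertain. Its lowest classes were microglia and macrophages, at 36.3 ± 10.1 CPM, endothelial nuclei, at 37.0 ± 21.3 CPM, and oligodendrocytes, at 38.2 ± 12.2 CPM. The SD ranges overlapped, and these classes were not compared within mice. Atp5c1, the central stalk subunit, averaged 104.6 ± 10.1 CPM in astrocytes (log2 0.71), and the catalytic Atp5b averaged 55.1 ± 11.4 CPM in L2/3 IT neurons, its lowest class (log2 -0.79, adjusted p = 3.8e-25).

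The mix of mitochondrial transcripts also differed between classes. Of all mitochondrially encoded UMIs, mt-Co3, a complex IV subunit, took 32.0%, 33.2% and 30.1% in trained and 26.2%, 30.7% and 33.0% in control oligodendrocytes. In endothelial nuclei it took 21.1%, 20.1% and 16.2% in trained and 16.7%, 19.4% and 18.97% in control mice. The 2 classes did not overlap, and the mean difference within mice was 12.1 points ± 1.84 (SD, n = 6). The cytochrome b gene mt-Cytb ran the other way, with means of 13.2% in endothelial nuclei and 7.29% in oligodendrocytes. Over all nuclei mt-Co1 took 21.2%, 26.8% and 27.7% in trained and 22.1%, 28.05% and 26.9% in control mice; trained mouse 2 and control mouse 1 were the low ones of their groups.

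Training was the second comparison: did 3 days of lever pressing move the 2 genomes' transcripts together. The summed mitochondrially encoded level was higher on average in trained mice in 18 of 18 classes, by 1.21-fold (vascular and leptomeningeal) to 2.00-fold (L4/5 IT), with a median of 1.72. The nuclear sum was 0.888 to 1.05 times that of controls, with a median of 0.959, and its groups overlapped in 18 of 18 classes. In L2/3 IT neurons the mitochondrial sum was 368, 131 and 156 CPM in trained and 128, 93.3 and 110 CPM in control mice, so that all trained mice lay above all controls, mouse 4 narrowly. Astrocytes had 1194, 919 and 788 CPM in trained and 691, 578 and 724 CPM in control mice, again without overlap. Of all single genes, 3.92% lay wholly above controls in L2/3 IT and 4.82% in astrocytes. Pvalb interneurons had 592, 193 and 238 CPM in trained and 307, 116 and 180 CPM in control mice, with overlap.

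All trained mice lay above all controls in 7 of 18 classes for the mitochondrial sum. For the complex IV genes mt-Co1, mt-Co2 and mt-Co3 summed, that held in 12 classes, and for the 7 mitochondrial complex I genes in 2. Of all single-gene tests over the 19 sums, 3.89% lay wholly above controls. The 18 classes share the same 6 mice and are not independent. For the mitochondrial sum, trained mouse 2 was highest in 18 of them and control mouse 3 lowest in 16. Trained mouse 2 stood at 2.47 to 3.69 times the control mean in neuronal and 1.56 to 2.82 times in non-neuronal classes. Without it, trained mice stood at 0.959 to 1.35 times the controls in neuronal classes (median 1.19), with Sst and Vip below 1, and at 1.04 to 1.70 times in non-neuronal ones (median 1.28). Over all nuclei the log2 ratio of the mitochondrial sum was 0.71 with mouse 2 and 0.28 without it, and that of the nuclear sum -0.07 with it and 0.06 without it. Mouse 2 also had the highest log2 ratio of mitochondrial to nuclear sums in 18 of 18 classes, and all trained mice lay above all controls for that ratio in 2, astrocytes and pericytes. The nuclear sum was lowest in trained mouse 2 in 10 classes and in control mouse 1 in 7, and highest in trained mouse 4 in 11; the cytosolic ribosomal protein share was lowest in mouse 2 in 7 and in mouse 1 in 9 classes and highest in mouse 4 in 10. The part of any of these in the difference was not tested.

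Gene by gene, no member passed an adjusted p of 0.05 in any of the 19 sums with edgeR's quasi-likelihood test, where 0.0101% of all tests passed, all 21 of them in astrocytes. At an unadjusted p under 0.05, 86 of 174 mitochondrially encoded tests were higher in trained mice and none lower, against 3.82% of all tests in either direction. For nuclear members, 3 of 1597 were higher and 8 lower. DESeq2 called 1 member, mt-Co3 in astrocytes (adjusted p = 0.0074), where it called 0.0284% of all tests. Without a filter on low counts 55 member tests passed with edgeR, where 0.174% of all tests did. Fold changes of mitochondrially encoded genes were positive in 172 of 174 tests, and those of nuclear members in 607 of 1597, all with trained mouse 2 included. The 174 tests share mice and libraries and are not independent.

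In astrocytes mt-Co3 stood at 349, 287 and 243 CPM in trained and 173, 167 and 222 CPM in control mice, a log2 fold change of 0.70 (SE 0.15, adjusted p = 0.095 with edgeR). All trained mice lay above all controls, as for 4.82% of all genes there, and the margin between trained mouse 6 and control mouse 5 was small. The complex IV catalytic subunit gene mt-Co1 had 273, 218 and 218 CPM in trained and 148, 168 and 192 CPM in control mice (log2 0.54, adjusted p = 0.21), and the complex I gene mt-Nd1 had 43.4, 32.7 and 34.7 CPM in trained and 31.5, 23.8 and 30.1 CPM in control mice (log2 0.44). For mt-Cytb, mt-Co2, mt-Atp6, mt-Nd4, mt-Nd2, mt-Nd3, mt-Nd4l and mt-Nd5 the groups overlapped, with log2 fold changes between 0.48 and 0.67. The sparse mt-Atp8 and mt-Nd6 were not fitted in astrocytes.

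In L2/3 IT neurons mt-Co1 stood at 75.5, 38.7 and 44.7 CPM in trained and 28.3, 26.2 and 33.6 CPM in control mice (log2 0.88, SE 0.22, unadjusted p = 0.0021 and adjusted p = 1.0 with edgeR). The groups did not overlap for mt-Co1, mt-Co2 and mt-Co3, as for 3.92% of all genes in that class. For mt-Co3 the values were 81.7, 33.7 and 40.3 CPM in trained and 27.9, 23.8 and 28.3 CPM in control mice (log2 0.99). For mt-Co2, a further core subunit of complex IV, they were 51.7, 17.4 and 22.0 CPM in trained and 16.1, 10.7 and 15.5 CPM in control mice (log2 1.14). The 8 other fitted genes, mt-Nd1, mt-Nd2, mt-Nd3, mt-Nd4, mt-Nd4l, mt-Nd5, mt-Atp6 and mt-Cytb, overlapped between groups and had log2 fold changes of 0.46 to 1.17; in each of them mouse 2 was highest.

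Over all nuclei mt-Nd3 had the largest log2 fold change, 1.08, with 8.04, 2.35 and 3.37 CPM in trained and 2.37, 1.75 and 2.49 CPM in control mice; trained mouse 4 lay below 2 of the 3 controls. The smallest was that of mt-Atp8, 0.42, with 0.776, 0.226 and 0.236 CPM in trained and 0.416, 0.222 and 0.309 CPM in control mice. The other 11 genes, mt-Nd1, mt-Nd2, mt-Nd4, mt-Nd4l, mt-Nd5, mt-Nd6, mt-Cytb, mt-Co1, mt-Co2, mt-Co3 and mt-Atp6, lay between, at 0.45 to 0.82, and all 13 overlapped between groups.

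**Figure D5:**
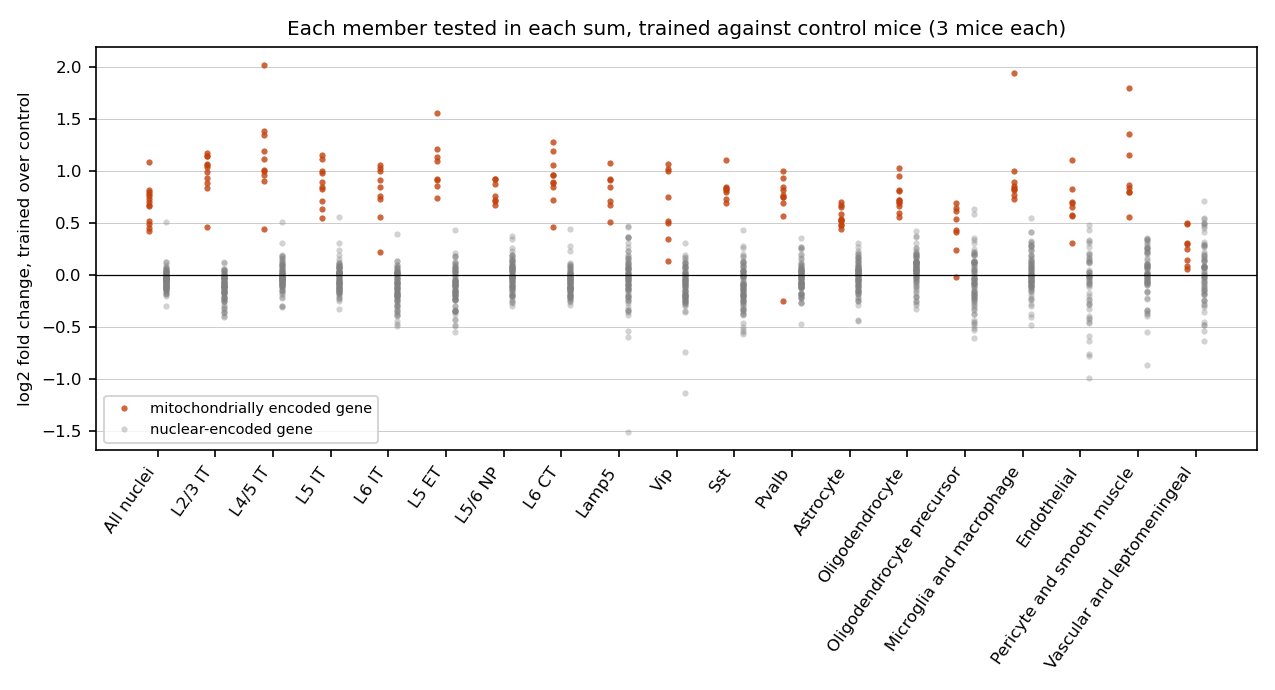
Log2 fold change of trained over control mice in each of the 19 sums, 1 point per fitted gene. Mitochondrially encoded genes lie above 0 in 172 of 174 tests and nuclear-encoded genes in 607 of 1597. Trained mouse 2 is included in every sum.

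Single libraries decided some calls. With edgeR, leaving out trained mouse 6 gave 3 calls, mt-Nd1, mt-Nd2 and mt-Co2 in pericytes, and leaving out trained mouse 4 gave 1, mt-Co1 in Lamp5 interneurons; none passed with all mice. Over all genes these fits called 0.0949% and 0.049% of tests, for mouse 6 and mouse 4 left out in turn. In pericytes mt-Nd2 stood at 93.6, 115 and 95.4 CPM in trained and 47.6, 30.8 and 11.5 CPM in control mice, all trained above all controls, as for 4.91% of all genes there. In Lamp5 interneurons mt-Co1 stood at 153, 70.4 and 86.4 CPM in trained and 60.2, 51.9 and 53.9 CPM in control mice (log2 0.92, unadjusted p = 0.00037 with edgeR), again all trained above all controls, as for 3.82% of genes in that class. The number of mitochondrially encoded tests higher at an unadjusted p under 0.05, which was 86 with all mice, fell to 31 if trained mouse 2 was left out and to 48 if control mouse 3 was. It reached 137 with trained mouse 4 left out and 136 with control mouse 1 left out.

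Of all nuclear-member tests for training, Cox6a2 in Lamp5 interneurons, given above, had the smallest adjusted p, 0.44 with edgeR. In L2/3 IT neurons the complex I subunit Ndufb7 had 11.3, 16.0 and 12.6 CPM in trained and 14.8, 19.8 and 19.4 CPM in control mice (log2 -0.40, SE 0.18, unadjusted p = 0.044 with edgeR), with overlap. Beside it Ndufaf4, Cox7b2 and Ndufv3 had log2 fold changes of -0.37 to -0.16, and Atp5a1, Ndufs4, Atp5l and Ndufa10 of 0.04 to 0.12.

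The assembly factor Ndufaf4 came up among the 4 lower genes of smallest p in all 4 sums inspected. In astrocytes it had 87.9, 93.2 and 85.8 CPM in trained and 114, 115 and 100.3 CPM in control mice (log2 -0.25, SE 0.13, adjusted p = 0.67 with edgeR), and in L5 IT neurons 64.0, 56.7 and 57.8 CPM in trained and 65.6, 73.3 and 67.9 CPM in control mice (log2 -0.18). All trained mice lay below all controls in these 2 sums, as did 9.09% of all genes in astrocytes and 6.71% in L5 IT, and the groups overlapped in L2/3 IT and in all nuclei. Sdhaf3, an assembly factor of complex II, lay below controls in every trained mouse in all nuclei, at 22.2, 21.6 and 20.9 CPM in trained and 24.1, 22.6 and 24.9 CPM in control mice (log2 -0.13, as for 5.15% of all genes there), and in L5 IT neurons (log2 -0.16). Across all 19 sums nuclear members lay wholly below controls in 44 of 1597 tests and wholly above in 17, where 5.37% and 3.89% of all tests did. In astrocytes Ndufaf7, Sdha, Ndufs6 and Ndufaf2 had log2 fold changes of 0.17 to 0.30, and Ndufc1, Sdhaf1 and Ndufaf5 of -0.44 to -0.25. In L5 IT neurons Ndufaf1, Ndufab1, Cox6a2 and Ndufb3 had 0.10 to 0.56, and Ndufaf8 and Atp5o (ENSMUSG00000116933) -0.33 and -0.25. In all nuclei Cox6b2, Ndufs4, Atp5s and Ndufa10 had 0.07 to 0.51, and Uqcrc2 and Atp5o -0.15 to -0.08. None of them passed.

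Related gene lists gave no call either. Of 271 tests of cytosolic glycolysis genes 2 were higher and 1 lower at an unadjusted p under 0.05, of 307 of pyruvate dehydrogenase and the tricarboxylic acid cycle 3 and 6, of 350 of mitochondrial biogenesis and mitochondrial DNA expression 8 and 3, of 493 of assembly genes outside the member rule 16 and 3, and of 218 of cytochrome c, carriers and porins 2 and 3, against 3.82% of all tests. In astrocytes Slirp, which keeps mitochondrial messenger RNAs stable together with Lrpprc, had 13.9, 18.1 and 13.4 CPM in trained and 23.9, 25.1 and 28.1 CPM in control mice, without overlap (log2 -0.71, SE 0.19, adjusted p = 0.22 with edgeR). Mtpap, the mitochondrial poly(A) polymerase, had 25.3, 21.4 and 33.7 CPM in trained and 17.8, 19.8 and 18.9 CPM in control astrocytes (log2 0.55). Dlat and Pdhx, parts of the pyruvate dehydrogenase core, also lay above controls in every trained mouse there (log2 0.31 and 0.36), as did Tmem126b, an assembly factor of complex I (log2 0.52). Of all genes in astrocytes, 4.82% lay wholly above controls and 9.09% wholly below. Genes of the same 2 lists lay below controls in every trained mouse. Pdha1, a subunit of the pyruvate dehydrogenase complex, had 27.6, 32.3 and 26.8 CPM in trained and 35.9, 33.5 and 34.8 CPM in control astrocytes (log2 -0.21), and Acad9, another assembly factor of complex I, had a log2 fold change of -0.46. Over all nuclei Top1mt, the mitochondrial topoisomerase, had 4.03, 3.97 and 3.58 CPM in trained and 3.01, 2.85 and 3.24 CPM in control mice (log2 0.37, unadjusted p = 0.024).

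The 5 genes outside the module whose level over all nuclei followed the mitochondrial sum most closely over the 6 mice, of 3213 at 50 CPM or more, were Ski, Nipsnap2, Arih2, Rsrp1 and Bcl9, with Pearson's r of 0.97 to 0.99. Each was highest in trained mouse 2, for example Ski at 71.5, 60.1 and 63.0 CPM in trained and 60.5, 57.3 and 59.6 CPM in control mice. For Arih2 the gap was small, with 69.8, 66.6 and 67.9 CPM in trained and 65.9, 65.2 and 66.7 CPM in control mice.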

How the data were processed

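Nuclei of 6 mice were sequenced with droplet-based 3' capture, each in a shallow and a deep run that are joined in 1 matrix. The authors deposited UMI counts per gene and nucleus, for which the submitters' processing notes name Cell Ranger 4.0.0 and mm10. The sources used here do not give the handling of introns or of strand. Labels name separate mice, so n is 3 trained and 3 control.

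Barcodes with under 500 genes, with 5% or more mitochondrial UMIs, or called doublets by scrublet (2391, or 3.21% to 5.70% per mouse) were left out. Clustering used scanpy 1.11.5 with 2000 variable genes, 30 components, 20 neighbours and Leiden resolution 1. Counts were summed per mouse and class and tested with edgeR 4.0.16 (quasi-likelihood, TMM, Benjamini-Hochberg over all genes, threshold 0.05) in R 4.3.3; DESeq2 1.42.0 was an alternative. The scripts were tested on simulated data. Summed levels and CPM are computed from the deposited counts without TMM.

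Named in the class contrasts are the nuclear members of smallest p, up to 3 higher and 3 lower per class, and in the training contrast the 4 higher and 4 lower nuclear members of smallest p in 4 sums, beside all mitochondrially encoded genes. Past the threshold is required in the class contrasts only. Of each related list the 2 genes of smallest p each way in all nuclei and astrocytes could be named, beside the isoform genes with their partners and the 5 genes outside the module that follow the mitochondrial sum most closely. Genes outside this rule (Sdhc in Pvalb, and calls that appear when a mouse is left out) were chosen after their values were seen. Members and lists were chosen with earlier results of these data known.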

Additional observations from a re-analysis of the deposited data

How the results depend on the processing

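The count of members called for training was 0 with edgeR, 1 with DESeq2, 55 with no filter on low counts and 0 to 3 when each replicate was left out; the unfiltered fit called 0.174% of all gene tests. The cause was not tested. Over all nuclei the log2 ratio of trained over control mice ran from 0.28 (without trained mouse 2) to 0.93 (without trained mouse 4) for the mitochondrial sum and from -0.22 to 0.06 for the nuclear sum when a replicate was left out, and was 0.69 and -0.10 without cluster 18. Of 136 named class differences, 94 held under every alternative run and 42 were lost or reversed under at least 1, among them 26 against the pooled rest and 16 without TMM. Reversed without TMM were Ndufs4 in L4/5 IT (-0.024) and L5 IT (-0.15), Ndufaf4 in L5 IT (-0.10) and Ndufaf7 in L6 IT (-0.036). Reversed against the pooled rest were Ndufaf4 in L5 IT (-0.0027), Cox7a2 (0.11) and Cox8a (0.19) in L5/6 NP, Ndufa7 in L6 CT (0.046) and Sst (0.045), Atp5l in Vip (0.10) and Cox4i2 in oligodendrocytes (-0.37). No paired analysis was possible because the groups share no replicate numbers. With 3 mice a group, a training difference that fails the threshold may still exist, and isoform genes of under 100 UMIs in a class are imprecise.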

Other observations

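Nuclei outside the 18 classes were not compared. In cluster 17 (486 nuclei, led by Scn7a, Col8a1 and Col26a1), the mitochondrial sum was 125, 90.0 and 98.7 CPM in trained and 147, 74.9 and 89.3 CPM in control mice. L6b-like nuclei had mitochondrial sums of 327, 79.8 and 156 CPM in trained and 159, 24.6 and 106 CPM in control mice. Differentiating oligodendrocytes had 808, 356 and 368 CPM in trained and 418, 316 and 437 CPM in control mice. The groups overlapped in all 3.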
